A study of Mus musculus with 24 samples.

Results

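The 291 genes described here lie on mouse chromosome 2 around Eif2ak4, the gene of the kinase Gcn2 that the study deleted. They are the genes with a midpoint in the 40 Mb from 98 Mb onwards on GRCm38 in GENCODE M21 and at least 240 expected counts summed over all 24 libraries. Of 690 annotated genes in that window, 15 were left out by name, Eif2ak4 among them, and 384 were under the count minimum, which leaves 291 of the 38924 genes in the files. The members comprise 266 protein-coding genes, 15 long non-coding or antisense genes and 10 pseudogenes. Members were chosen by position and by the expected count summed over all libraries, so no genotype difference selected single members within the window. The region itself was proposed after called genes of these data had been seen, Pla2g4e and Ganc among them. Its member values, and the shares called, are therefore a description. Wt1, with 240 counts, lay just inside the minimum and AA467197, with 239, just outside it. The first midpoint inside the window was that of B230118H07Rik at 101.61 Mb and the last that of Jag1 at 137.1 Mb. Lrrc4c at 96.97 Mb and Btbd3 at 138.42 Mb lay just outside.

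Whole spinal cord RNA was sequenced from 24 mice aged 8 weeks, 13 male and 11 female. The study crossed loss of Gcn2, which senses uncharged tRNA and starts the integrated stress response, with GarsP278KY, a dominant mutation of glycyl-tRNA synthetase that models Charcot-Marie-Tooth neuropathy. Mice with wild-type Gars had 2 intact Gcn2 copies (Gcn2+/+, 4 animals), 1 (Gcn2+/-, 4 animals) or 0 (Gcn2-/-, 3 animals). Mice with 1 GarsP278KY copy were Gcn2+/+ (4 animals), Gcn2+/- (4) or Gcn2-/- (5). For all of them the labels give one strain background, B6J;CASTxB6.129, and they do not say from which strain any mouse had this stretch of chromosome 2. Loss of Gcn2 and linked sequence therefore cannot be told apart by the design. Each library was taken as 1 animal, from its own number and sex in the labels, although separate animals are not stated in words, so p-values measure the spread between these libraries.

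Sequence around a targeted allele stays linked to it through many crosses, so mice that inherit the allele usually also inherit the chromosome of the strain in which it was made. Strains differ in cis-acting sequence (promoters, enhancers, splice sites, transcript ends), and a gene under such a difference changes its mRNA level with each copy inherited. Genes in such a linked stretch share a position and need share no function.

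Library totals ran from 19.7 to 32.4 M expected counts (M, mega). Eif2ak4 itself followed the labels in every library: 28.9 to 34.4 CPM in the 8 Gcn2+/+ mice, 20.4 to 23.6 in the 8 Gcn2+/- mice and 11.4 to 15 in the 8 Gcn2-/- mice. CPM (counts per M) uses library totals adjusted with TMM factors. No marker read here for spinal cord neurons, oligodendrocytes, astrocytes or microglia was at 0 in any library, and the 3 forebrain markers summed to 2.77 to 5.25 CPM. The 8 Schwann cell and nerve root markers summed to 2020 and 3740 CPM in Gcn2+/+ Gars mutants 2 and 4, to 2000 and 3270 CPM in the Gcn2+/- libraries 1 and 3 of wild-type Gars, and to 694 to 1120 CPM in the other 20 libraries. In bulk tissue, fewer cells of a type and less RNA per cell cannot be told apart. The titles begin with a number that several libraries share and whose meaning is not stated, and 25801 is shared by Gcn2+/+ wild-type Gars mouse 4 and Gcn2+/+ Gars mutant 2.

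For the members with the strongest fall and the strongest rise by p-value, the 250 bases before the annotated start are shown as the reference sequence where cis-acting control begins (RefSeq promoter table, GRCm38.p6). Capitals mark GC boxes (GGGCGG or, on the other strand, CCGCCC).
Pla2g4e, chr2:120245336-120245585, minus strand: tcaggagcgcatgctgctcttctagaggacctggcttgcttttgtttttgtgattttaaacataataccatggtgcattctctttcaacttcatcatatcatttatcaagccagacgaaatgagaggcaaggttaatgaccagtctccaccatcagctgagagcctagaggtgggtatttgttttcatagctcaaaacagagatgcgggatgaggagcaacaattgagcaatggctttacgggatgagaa
Tcp11l1, chr2:104712163-104712412, minus strand: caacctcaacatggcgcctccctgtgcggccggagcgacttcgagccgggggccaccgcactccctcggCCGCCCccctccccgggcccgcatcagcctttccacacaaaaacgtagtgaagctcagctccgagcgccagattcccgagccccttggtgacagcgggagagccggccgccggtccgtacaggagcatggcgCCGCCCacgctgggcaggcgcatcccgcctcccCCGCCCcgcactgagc
The Pla2g4e stretch, with 43.2% G and C, held none of the 5 motifs searched on both strands, and the Tcp11l1 stretch, with 72% G and C, held 3 GC boxes. Those motifs were the TATA box (TATAAA), the CCAAT box, the GC box, the cyclic AMP response element (TGACGTCA) and the amino acid response element bound by Atf4 (TTGCATCA), and none contains another. GC boxes lay in 32.7% of all 32851 promoters of this length in the table, in 59.8% of the 239 members that could be matched and in 59.1% of the 44 matched members called below. CCAAT lay in 33.8%, 36% and 31.8%, and TATAAA in 12.4%, 5.44% and 4.55%. TGACGTCA lay in 1.55%, 1.67% and 4.55%, and TTGCATCA in 0.791%, 0.418% and 0%. The share of all promoters counts every row, with no count minimum and no choice of 1 start per gene. Members were counted at 1 start each and had passed the count minimum, so the shares are not like for like. The letters shown are those of the reference strain, so they do not show what the mice carried.

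Over both Gars genotypes, 50 of the 291 members changed with the number of lost Gcn2 copies, 32 of them higher and 18 lower (edgeR, slope per lost copy, adjusted p below 0.05). That is 17.2%, beside 0.661% of all 17409 tested genes, 0.391% higher and 0.27% lower. At an unadjusted p below 0.05 the counts were 136 of 291 members (46.7%) and 1108 of all tested genes (6.36%). The largest decreases were those of the phospholipase gene Pla2g4e and the checkpoint kinase gene Bub1b, and the largest increase was that of the non-coding A730017L22Rik. Most steps were small: the called members moved by 0.09 to 1.35 log2 units per copy with a median of 0.22, and 31 of the 50 moved by less than 0.25. The median slope was 0.01 over all members and -0.002 over all tested genes, so higher and lower members were both common. The median absolute slope was 0.075 in members and 0.032 in all tested genes.

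Called members lay on both sides of Eif2ak4, 7 of the 50 proximal and the others distal. Of the members 10 to 21 Mb proximal of Eif2ak4, 2 of 39 (5.13%) were called, then 2 of 21, 2 of 15 and 1 of 7 in the steps up to the gene. On the distal side 8 of 44 (18.2%) were called within 2 Mb, 9 of 43 (20.9%) between 2 and 5 Mb, 9 of 43 (20.9%) between 5 and 10 Mb, and 17 of 79 (21.5%) between 10 and 20 Mb. The window's edge was not the end of it. Among all tested genes of chromosome 2, 15.6% of 45 were called 20 to 30 Mb distal of Eif2ak4, 13.5% of 156 at 30 to 40 Mb and 10.5% of 105 at 40 to 50 Mb. In the last 2 steps, 50 to 70 Mb away, 0 of 96 and 0 of 61 were called by edgeR, with 7 and 1 at an unadjusted p below 0.05. On the proximal side 2 of 64 were called 20 to 30 Mb away, and 2 of 49 at 30 to 40 Mb. At an unadjusted p below 0.05 those steps held 20.3% and 38.8% of their genes, beside 6.36% of all tested genes. The proximal steps at 40 to 50, 50 to 60 and 60 to 70 Mb held 23%, 20.5% and 23.1%, with 0, 1 and 0 called. The step at 70 to 80 Mb held 5.88%. Other chromosomes held 14 called genes of 15960 (0.0877%). Of the 11 tested genes left out of the members by name, besides Eif2ak4, 4 were called.

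**Figure D1:**
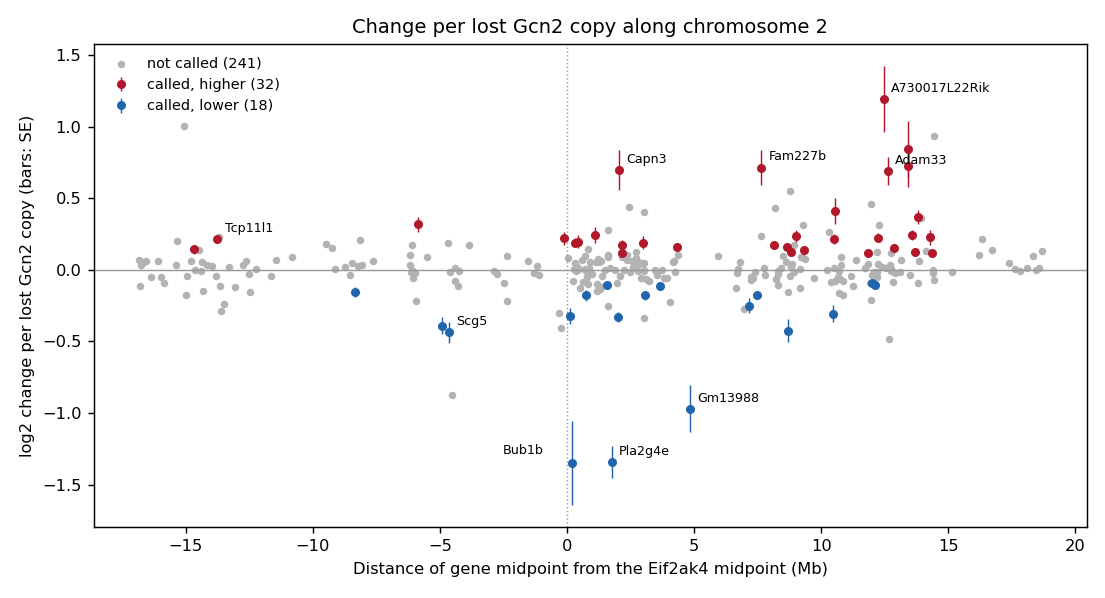
Change per lost Gcn2 copy (log2, with SE for called genes) of each of the 291 members against its distance from Eif2ak4 in Mb, over both Gars genotypes. The 32 called increases (red) begin with Nat10, 14.69 Mb proximal, and the 18 called decreases (blue) with Ccdc34, 8.34 Mb proximal. Called members reach to about 14 Mb distal, and grey points are the 241 members not called.

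Pla2g4e, which encodes cytosolic phospholipase A2 epsilon, an enzyme that makes the lipid precursors of endocannabinoid-like amides, fell with each lost copy. Its gene lies at 120166412 to 120245335 on the minus strand, 1.77 Mb distal of Eif2ak4. The 8 Gcn2+/+ libraries had 23.3 to 44.3 CPM with a median of 40.4, the 8 Gcn2+/- libraries 19.8 to 26.8 with a median of 22.1, and the 8 Gcn2-/- libraries 4.34 to 6.87 with a median of 5.33. No Gcn2-/- library reached the level of any other library. Within Gcn2+/+ mice, both libraries of title number 25801 were the lowest, at 23.3 and 26.4 CPM, inside the Gcn2+/- range, while the other 6 had 38.3 to 44.3 CPM. The change was -1.34 ± 0.11 (SE) log2 units per copy (adjusted p = 2.37e-07), and -1.47 without those libraries. Leaving out title number 25801, here and below, was not planned beforehand. Ganc, the gene of neutral alpha-glucosidase C (120403896 to 120461700, plus strand), went from a median of 34.4 CPM (24.2 to 36.2) in Gcn2+/+ to 27.3 (25.8 to 29.4) in Gcn2+/- and 20 (18.7 to 21.9) in Gcn2-/- mice. Here too the libraries of 25801 were the lowest Gcn2+/+ values, at 27.8 and 24.2 CPM. Its slope was -0.33 ± 0.03 (adjusted p = 5.84e-06).

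Ganc overlaps the muscle calpain gene Capn3 on the same strand, and Capn3 moved the other way. Capn3 had a median of 1.3 CPM in Gcn2+/+, 2.9 in Gcn2+/- and 3.96 in Gcn2-/- mice (slope 0.70 ± 0.14, adjusted p = 0.0125). It was chosen after its values were seen. Reads in shared stretches of overlapping genes may be assigned to either, and the sum of both genes still fell, by 0.23 log2 units per copy (SE 0.03, adjusted p = 1.61e-04). Galk2, the gene of N-acetylgalactosamine kinase, overlaps Fam227b on the opposite strand, 7.5 Mb distal of Eif2ak4, and this pair also diverged. Galk2 fell from a median of 21.4 CPM to 18.7 and 16.4 with 1 and 2 lost copies (-0.18 ± 0.03, adjusted p = 7.52e-04), and all Gcn2-/- libraries (14.9 to 17.9) lay below all Gcn2+/+ libraries (18.5 to 23.2). Fam227b rose from 0.651 to 0.937 and 1.83 CPM (0.71 ± 0.12, adjusted p = 0.00312), and its Gcn2-/- range of 1.09 to 2.18 overlapped the Gcn2+/+ range of 0.19 to 1.47. Of the 50 called members, 16 overlapped another annotated gene with at least 240 counts, 3 on the same strand and 14 on the opposite strand. The library kits named in the labels are stranded, but whether counting used the strand is not given in the sources used here, so the values of such pairs are uncertain.

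Counts of called genes in each class, here and below, are to be read beside 17.2% of all members and 0.661% of all tested genes. Of the 31 members in a class of metabolic enzymes and mitochondrial genes, 10 were called, 7 higher and 3 lower, with a median slope of 0.07. Besides Ganc and Galk2, Mrps26, a mitochondrial ribosomal protein gene, was the third that fell (-0.11 ± 0.02, adjusted p = 0.0304). Idh3b, a subunit of the NAD-dependent isocitrate dehydrogenase of the citric acid cycle, had 147 to 166 CPM in Gcn2+/+ and 173 to 194 in Gcn2-/- mice, with no overlap. Its slope was 0.12 ± 0.02 (adjusted p = 0.00118), and all 16 libraries were separated. Blvra, the gene of biliverdin reductase A, went from 13.5 to 15.8 CPM in Gcn2+/+ to 16.8 to 21.9 CPM in Gcn2-/- mice, again with no overlap (0.16 ± 0.03, adjusted p = 0.00396). Fahd2a, of the fumarylacetoacetate hydrolase family, rose by 0.24 ± 0.04 per copy (adjusted p = 0.00297), with ranges of 5.89 to 9.03 and 8.52 to 11.7 CPM that overlapped. Pank2, a mitochondrial pantothenate kinase of coenzyme A synthesis (0.15), Slc23a2, a vitamin C transporter (0.12), and Ivd, isovaleryl-CoA dehydrogenase (0.20), rose as well. The tenth was Itpa, described with its pseudogene below.

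Of 14 phospholipid and lipid enzymes, 2 were called, in opposite directions, and the median slope was 0.05. Pla2g4e fell. Slc27a2, a very-long-chain acyl-CoA synthetase, had 10.6 to 13.8 CPM in Gcn2+/+ and 14.4 to 16.4 in Gcn2-/- mice without overlap (0.17 ± 0.03, adjusted p = 0.00118). Pla2g4b, a neighbour of Pla2g4e from the same phospholipase family, lay at 0.28 ± 0.07 and did not pass the test (adjusted p = 0.0809).

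Of 20 genes of DNA replication, repair and cell division, 6 were called, 3 in each direction, beside 17.2% of all members. The median slope of these 20 genes was 0.01. Ncaph, a condensin subunit, fell from a median of 2 CPM to 1.12 (-0.43 ± 0.08, adjusted p = 0.00809), and Cep152, a centriole duplication factor, from 7.11 to 5.31 (-0.25 ± 0.05, adjusted p = 0.015). The Gcn2-/- libraries of Cep152, 3.87 to 6.18 CPM, just missed its lowest Gcn2+/+ library, at 6.19 CPM. Its call was lost without Gcn2+/+ Gars mutant 4 (adjusted p = 0.052) and without Gcn2+/+ Gars mutants 2 and 4 together (0.0745). Bub1b, the gene of the spindle checkpoint kinase BubR1, 0.19 Mb from Eif2ak4, did not sort by Gcn2 copies library by library. Among Gcn2+/+ mice it had 0.177, 0.192, 2.08 and 3.38 CPM with wild-type Gars and 0.683, 2.2, 2.54 and 3.92 with mutant Gars. Among Gcn2+/- mice Gars mutant 2 and wild-type Gars mouse 4 had 1.46 and 1.22 CPM and the other 6 had 0.0774 to 0.406. The Gcn2-/- mice had 0.093 to 0.638 CPM. Among Gcn2+/+ and Gcn2+/- libraries, those of title numbers 24905, 24906 and 25801 had 1.22 to 3.92 CPM of Bub1b. Those of the other title numbers had 0.0774 to 0.683 CPM, and why was not tested. The Bub1b slope was -1.35 ± 0.29 (adjusted p = 0.026), and -1.15 without title number 25801 (adjusted p = 0.161). The call was also lost, at adjusted p of 0.0503 to 0.0767, without Gcn2+/+ wild-type Gars mouse 3 or 4, Gcn2+/+ Gars mutant 1, 2 or 3, or Gcn2-/- Gars mutant 1, 3, 4 or 5. Without Gcn2+/+ Gars mutants 2 and 4 together the adjusted p was 0.05. Haus2, an augmin subunit, and Shld1, a shieldin subunit, were higher by 0.17 ± 0.04 (adjusted p = 0.0195) and 0.23 ± 0.05 (adjusted p = 0.0447). The Haus2 call was lost without Gcn2+/+ Gars mutant 3 (0.0587), Gcn2-/- wild-type Gars mouse 2 (0.0723) or 3 (0.0595), Gcn2-/- Gars mutant 1 (0.0573), or Gcn2+/+ Gars mutants 2 and 4 together (0.0761).

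Of 25 secreted, receptor and matrix genes, 3 were called and the median slope was 0.05. Adam33, a membrane metalloprotease gene 12.63 Mb distal of Eif2ak4, rose from a median of 1.28 CPM in Gcn2+/+ to 2.69 in Gcn2+/- and 4.19 in Gcn2-/- mice (0.69 ± 0.10, adjusted p = 5.31e-04). The Gcn2-/- libraries had 3.04 to 4.8 CPM, and Gcn2+/+ libraries had 0.78 to 1.32 CPM except those of title number 25801, which had 2.61 and 3.09 CPM. Without those the slope was 0.86 (adjusted p = 2.42e-06). Fbln7, the matrix protein fibulin 7, fell from 4.98 to 8.33 CPM in Gcn2+/+ to 4 to 4.86 CPM in Gcn2-/- mice (-0.31 ± 0.06, adjusted p = 0.00705), with no overlap. Gpr176, an orphan receptor gene next to Eif2ak4, rose by 0.22 ± 0.05 (adjusted p = 0.0166), and its call was lost without Gcn2-/- wild-type Gars mouse 2 (adjusted p = 0.0622), Gcn2+/+ Gars mutant 4 (0.0506) or Gcn2+/+ Gars mutants 2 and 4 together (0.124).

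Of 23 genes of membrane traffic and lysosomes, 3 were called, with a median slope of 0.00. Bloc1s6, the pallidin subunit of the BLOC-1 complex, had 14.4 to 18.6 CPM in Gcn2+/+, 17.2 to 20.8 in Gcn2+/- and 20.6 to 22 in Gcn2-/- mice, so the Gcn2-/- libraries lay above all Gcn2+/+ libraries (0.16 ± 0.03, adjusted p = 0.00156). Spg11, whose loss causes hereditary spastic paraplegia in people, went the other way, from 41.9 to 48 CPM down to 34.3 to 41.5 CPM (-0.12 ± 0.02, adjusted p = 0.00419). Vps16, of the HOPS and CORVET tethering complexes, fell by 0.09 log2 units per copy (SE 0.02, adjusted p = 0.0144), and all its Gcn2-/- libraries (42.1 to 45.5 CPM) were below all Gcn2+/+ libraries (48 to 54.4). That call was lost without Gcn2+/+ Gars mutant 3 (adjusted p = 0.055) or Gcn2-/- wild-type Gars mouse 3 (0.0645).

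Of 30 neuronal and synaptic genes, 2 were called (median slope 0.01), namely Gpr176 and Scg5. Scg5 encodes 7B2, the chaperone of prohormone convertase 2, and lies 4.63 Mb proximal of Eif2ak4. It had 185 to 297 CPM in Gcn2+/+ and 104 to 131 in Gcn2-/- mice, without overlap (-0.44 ± 0.07, adjusted p = 0.00245). Of the 8 Gcn2+/- libraries, 6 had 179 to 219 CPM, as in Gcn2+/+ mice, while Gars mutant 2 had 90.9 and wild-type Gars mouse 4 had 125, as in Gcn2-/- mice. Fmn1, a formin that nucleates actin filaments, lies beside Scg5 and fell by 0.39 log2 units per copy (SE 0.06, adjusted p = 0.00122), from 36.8 to 54.3 CPM in Gcn2+/+ to 21.5 to 35.7 in Gcn2-/- mice. The same 2 Gcn2+/- libraries were its lowest, at 26 and 22.9 CPM, and the other 6 had 32.7 to 51.2 CPM. They were also the only Gcn2+/- libraries above 1 CPM for Bub1b. The rest of the called genes of known role were spread over other classes. Bmf, a pro-apoptotic BH3-only protein, fell (-0.32 ± 0.06, adjusted p = 0.00312) as the 1 called of 16 phagocyte and immune genes (median -0.03), and Zc3h8, of the little elongation complex, rose (0.22 ± 0.04, adjusted p = 0.00416) as 1 of 2 called of 35 transcription, chromatin and RNA genes (median -0.03). Dnajc17, a J-domain protein, fell (-0.18 ± 0.04, adjusted p = 0.0219) as the 1 called of 17 proteasome, ubiquitin and chaperone genes (median -0.015), and lost its call without Gcn2+/+ Gars mutant 4 (0.0676) or any of Gcn2-/- wild-type Gars mouse 3 (0.081) and Gcn2-/- Gars mutants 1 (0.0573) and 5 (0.051). The Dnajc17 call was also lost without Gcn2+/+ Gars mutants 2 and 4 together (0.148) and without title number 25801 (0.0574).

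The other 103 members were in no class, and 21 of them were called, 17 higher and 4 lower, beside 17.2% of all members. The median slope of these 103 was 0.02. Tcp11l1, 13.75 Mb proximal of Eif2ak4, had the smallest p of all called increases. It had 50.1 to 69.4 CPM in Gcn2+/+, 58.1 to 69.9 in Gcn2+/- and 67.9 to 83.2 in Gcn2-/- mice (0.21 ± 0.03, adjusted p = 1.37e-04), and the outer ranges overlapped through 1 library at each end. Rassf2, a Ras-association protein that binds MST kinases, rose from 83.1 to 124 CPM in Gcn2+/+ to 125 to 158 in Gcn2-/- mice (0.24 ± 0.04, adjusted p = 0.00118). Aven, an apoptosis inhibitor (0.32 ± 0.05, adjusted p = 0.00214), Ccdc9b (0.19 ± 0.03, adjusted p = 0.00274) and Ciao1, of cytosolic iron-sulfur cluster assembly (0.12 ± 0.02, adjusted p = 0.00297), rose too. Ciao1 had 32.8 to 40.4 CPM in Gcn2+/+ and 42.6 to 44.2 in Gcn2-/- mice. Ccdc34 fell by 0.16 log2 units per copy (SE 0.03, adjusted p = 0.0304), a call lost (adjusted p of 0.0586 to 0.0928) without Gcn2+/+ wild-type Gars mouse 2 or 3, Gcn2+/+ Gars mutant 2 or 4, Gcn2-/- wild-type Gars mouse 2, or Gcn2-/- Gars mutant 1, 3, 4 or 5. It was also lost without Gcn2+/+ Gars mutants 2 and 4 together (-0.12, adjusted p = 0.266), without title number 25801 (0.0881) and without a filter on low counts (0.0536). The non-coding A730017L22Rik, chosen after its values were seen, had 0.377 to 0.746 CPM in 6 Gcn2+/+ libraries, 4.02 and 4.05 in those of title number 25801, 2.73 to 4.95 in Gcn2+/- and 4.34 to 8.83 in Gcn2-/- mice (1.19 ± 0.23, adjusted p = 0.00855). It shares its strand with the far more abundant 4930402H24Rik, which it overlaps.

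**Figure D2:**
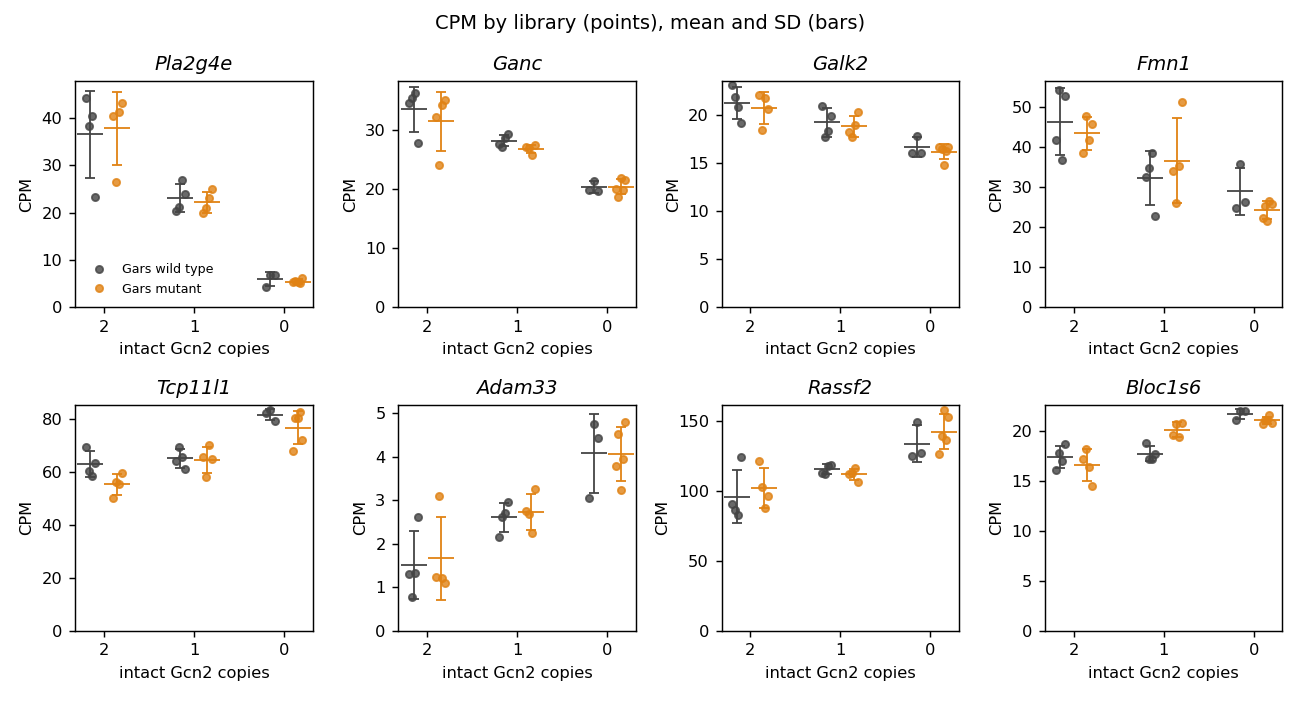
CPM of 8 called members in each library (points) with the mean and SD of each group, by number of intact Gcn2 copies, for mice with wild-type (grey) and mutant Gars (orange). Pla2g4e, Ganc, Galk2 and Fmn1 step down and Tcp11l1, Adam33, Rassf2 and Bloc1s6 step up with each lost copy in both Gars genotypes, and at Pla2g4e 1 library of each Gcn2+/+ group sits at the level of mice with 1 copy.

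Of the nearest 4 members on each side of Eif2ak4, Gpr176, Bmf and Bub1b were called per lost copy and the others were not. Over all members 17.2% were called, beside 0.661% of all tested genes. The nearest 4 on the proximal side were Gpr176, Fsip1, Thbs1 and Rasgrp1. Gpr176 alone of these was called over both Gars genotypes. Fsip1 lay at -0.41 ± 0.14 (adjusted p = 0.44), the matricellular thrombospondin gene Thbs1 at -0.30 ± 0.08 (adjusted p = 0.0954; DESeq2 0.0249) and Rasgrp1 at -0.03 ± 0.05 (adjusted p = 0.984). With mutant Gars, Thbs1 was called lower per lost copy (-0.45 ± 0.10, adjusted p = 0.0396) and for loss of both copies (-0.92 ± 0.20, adjusted p = 0.0416). Its highest value was 21.1 CPM in Gcn2+/+ Gars mutant 4, the library with the most nerve root marker RNA, and without Gcn2+/+ Gars mutants 2 and 4 its slope over both Gars genotypes had an adjusted p of 0.576. On the distal side they were Srp14, Bmf, Bub1b and Pak6. Bmf and Bub1b were called as above, while Srp14, of the signal recognition particle, lay at 0.08 ± 0.03 (adjusted p = 0.41) and Pak6 at -0.08 ± 0.03 (adjusted p = 0.743).

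Across the whole region, 24 of 291 members (8.25%) had all 8 Gcn2-/- libraries above (13) or below (11) all 8 Gcn2+/+ libraries, beside 0.236% of all tested genes (0.132% above, 0.103% below). Of the 50 called members, 22 were among them. Without title number 25801, whose libraries had intermediate values at several members, 42 members were apart, 26 above and 16 below, beside 83 of all 17330 genes tested without it (0.479%). That setting was not planned beforehand, and with fewer libraries the groups are apart more easily. Gcn2+/- means lay between the other genotypes for 46 of the 50 called members with wild-type Gars and for 48 with mutant Gars. The median position of Gcn2+/- was 0.41 and 0.5 of the way from Gcn2+/+ to Gcn2-/-. The slope that called these members was fitted with the same Gcn2+/- libraries, which favours a place between, so these values are a description. No member was called in the test of Gcn2+/- against the midpoint of the other genotypes on the log scale (edgeR, 0 of 291 beside 0.00574% of all tested genes). At an unadjusted p below 0.05 there were 3 members (1.03%), beside 3.07% of all tested genes. In the midpoint test DESeq2 called 1, and edgeR called 2 with a block for title number or without 25801 and 1 without Gcn2+/+ wild-type Gars mouse 4.

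The copy effect was then read separately in mice with wild-type and with mutant Gars, which share no library. With mutant Gars 27 members were called per lost copy, 16 higher and 11 lower (9.28%, beside 0.454% of all tested genes, 0.247% higher and 0.207% lower). With wild-type Gars 2 were called, Pla2g4e and Ganc, both lower (0.687%, beside 0.023%, 0.0172% lower). All 16 that rose with mutant Gars had a positive slope with wild-type Gars, 15 of them at an unadjusted p below 0.05, with medians of 0.23 and 0.17. All 11 that fell had a negative slope there too, 8 at an unadjusted p below 0.05, with medians of -0.35 and -0.25. In either direction, 28.2% of all members and 3.74% of all tested genes had an unadjusted p below 0.05 with wild-type Gars. The difference of the slopes itself was called for 0 of 291 members by edgeR and by DESeq2 (beside 0.0172% of all tested genes, 0.0115% higher and 0.00574% lower). In edgeR 16 members (5.5%) had an unadjusted p below 0.05 for it, near the 4.78% of all tested genes. A missing call for the difference does not show that the slopes were alike. Among the called, Tcp11l1 rose by 0.25 ± 0.04 with mutant Gars (adjusted p = 0.00122) and lay at 0.17 ± 0.04 with wild-type Gars (adjusted p = 0.366). The count with mutant Gars depended on single libraries. It was 16, 11 and 7 without Gcn2+/+ Gars mutants 1, 3 and 4, and 14, 10, 9 and 10 without Gcn2-/- Gars mutants 1, 3, 4 and 5. It was 8 without Gcn2+/+ Gars mutants 2 and 4, whose nerve root markers were high. That fit also has fewer Gcn2+/+ Gars mutants, and mutant 2 is of title number 25801, so the count does not single out the markers. What part those markers had in the calls was not tested. With wild-type Gars the count was 1, 1 and 5 without Gcn2+/+ mice 2, 3 and 4 and 1 and 0 without Gcn2-/- mice 1 and 3. These left-out counts are given without the share of all tested genes, so they do not set members apart from other genes.

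**Figure D3:**
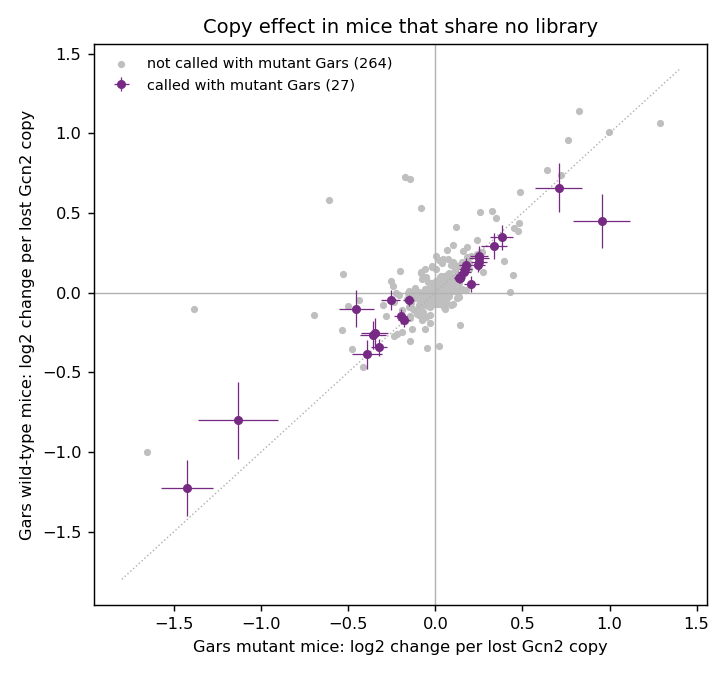
Change per lost Gcn2 copy (log2, bars SE for the called genes) with wild-type Gars against that with mutant Gars, for all 291 members. The 27 members called with mutant Gars (purple) all lie on the same side of 0 on both axes, and the dotted line marks equal values.

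Comparing the outer genotypes alone, loss of both Gcn2 copies with mutant Gars changed 24 members, 13 higher and 11 lower (8.25%, beside 0.494% of all tested genes, 0.236% higher and 0.258% lower). With wild-type Gars the same comparison called 2, again Pla2g4e and Ganc (0.687%, beside 0.0287%, 0.023% lower). Of those 24, all 13 that rose had a positive and all 11 that fell a negative log2 change with wild-type Gars, with 11 and 8 of them at an unadjusted p below 0.05. In either direction, that level was met with wild-type Gars by 27.1% of all members and 3.68% of all tested genes. Pla2g4e had 37.9 ± 7.69 CPM (SD, n = 4) in Gcn2+/+ and 5.41 ± 0.43 (n = 5) in Gcn2-/- Gars mutants, and 36.6 ± 9.2 (n = 4) and 5.99 ± 1.43 (n = 3) in mice with wild-type Gars. That was a log2 change of -2.80 ± 0.18 with mutant Gars (edgeR, adjusted p = 1.08e-08). Ganc changed by -0.64 ± 0.09 (adjusted p = 9.93e-04), and Tcp11l1 by 0.49 ± 0.07 with mutant Gars (adjusted p = 0.00102) and 0.36 ± 0.08 with wild-type Gars (adjusted p = 0.28). Fam227b rose by 1.90 ± 0.32 (adjusted p = 0.00435). Ttbk2 encodes tau tubulin kinase 2, which acts in the making of cilia. Gcn2+/+ Gars mutants had 284 to 288 CPM and Gcn2-/- Gars mutants 331 to 389 (0.35 ± 0.06, adjusted p = 0.0038), but with wild-type Gars both groups were high, at 323 to 373 and 351 to 392 CPM (0.06 ± 0.07, adjusted p = 1). Its slope over both Gars genotypes was not called (adjusted p = 0.359), and the call with mutant Gars was lost without Gcn2+/+ Gars mutants 2 and 4 (adjusted p = 0.0646) and when only the libraries of that comparison were fitted (0.111). With only the libraries of each comparison in the fit, Ganc (adjusted p = 0.137), Tcp11l1 (0.0702) and Fam227b (0.178) lost their calls with mutant Gars, and Pla2g4e (0.127) and Ganc (0.203) lost theirs with wild-type Gars. Without single libraries the 24 calls with mutant Gars became 14, 13 and 7 (without Gcn2+/+ Gars mutants 1, 3 and 4) and 15, 12 and 12 (without Gcn2-/- Gars mutants 3, 4 and 5). The 2 calls with wild-type Gars became 4 without Gcn2+/+ mouse 4, and 1 without Gcn2-/- mouse 1 or 3. Here too the share of all tested genes in each left-out fit is not given.

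Mutant Gars, averaged over the Gcn2 genotypes, changed 1 of 291 members (0.344%, beside 0.448% of all tested genes). That gene was Ttl, tubulin tyrosine ligase, at 73.1 ± 5.7 CPM (SD, n = 4), 73.9 ± 2.84 (n = 4) and 71.2 ± 2.57 (n = 3) with wild-type Gars and 2, 1 and 0 Gcn2 copies, and 68.6 ± 5.43 (n = 4), 64.2 ± 0.73 (n = 4) and 61.9 ± 2.82 (n = 5) with mutant Gars. The change was -0.16 ± 0.03 (edgeR, adjusted p = 0.0362), and in 15 of the 24 fits that each left out 1 library the call was lost (adjusted p of 0.0512 to 0.114). Those were Gcn2+/+ mice 1 and 2, Gcn2+/- mice 1, 2 and 4 and Gcn2-/- mice 1, 2 and 3 with wild-type Gars, and Gcn2+/- mice 1, 2 and 3 and Gcn2-/- mice 1, 2, 3 and 5 with mutant Gars.

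Several libraries sat between the genotypes over part of the region only. For each library, its place between the mean of the other Gcn2+/+ libraries (0) and the mean of the other Gcn2-/- libraries (1) was read over the called members of 6 segments along the region, each of which held 2 to 15 of the 50 called members. These genes were called on the same libraries, so the places are a description. On the proximal side the libraries of title number 25801 were at 0.09 and -0.22, inside the range of the other Gcn2+/+ libraries (-0.45 to 0.43). On the distal side the libraries of 25801 were at 0.37 and 0.39, beside -0.36 to 0 in the other Gcn2+/+ libraries. In the segment of Itpa, Adam33 and Pcna, the most distal, they reached 0.53 and 0.52, beside 0.43 to 0.59 in the 8 Gcn2+/- libraries, 0.23 in Gcn2+/+ Gars mutant 1 and -0.41 to -0.18 in the other 5 Gcn2+/+ libraries. Gcn2-/- wild-type Gars mouse 1 was at 1.02 in the segment of Pla2g4e and Ganc and at 1.18 in that of Blvra and Ncaph, then at 0.51 in that of Itpa, Adam33 and Pcna, where the other Gcn2-/- libraries had 0.91 to 1.17. Gcn2+/- Gars mutant 2 and wild-type Gars mouse 4 were at 1.06 and 1.1 in the segment of Scg5 and Fmn1, which held 4 called members, and at 0.43 and 0.39 in that of Pla2g4e and Ganc. The other 6 Gcn2+/- libraries had 0.01 to 0.38 in the segment of Scg5 and Fmn1.

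**Figure D4:**
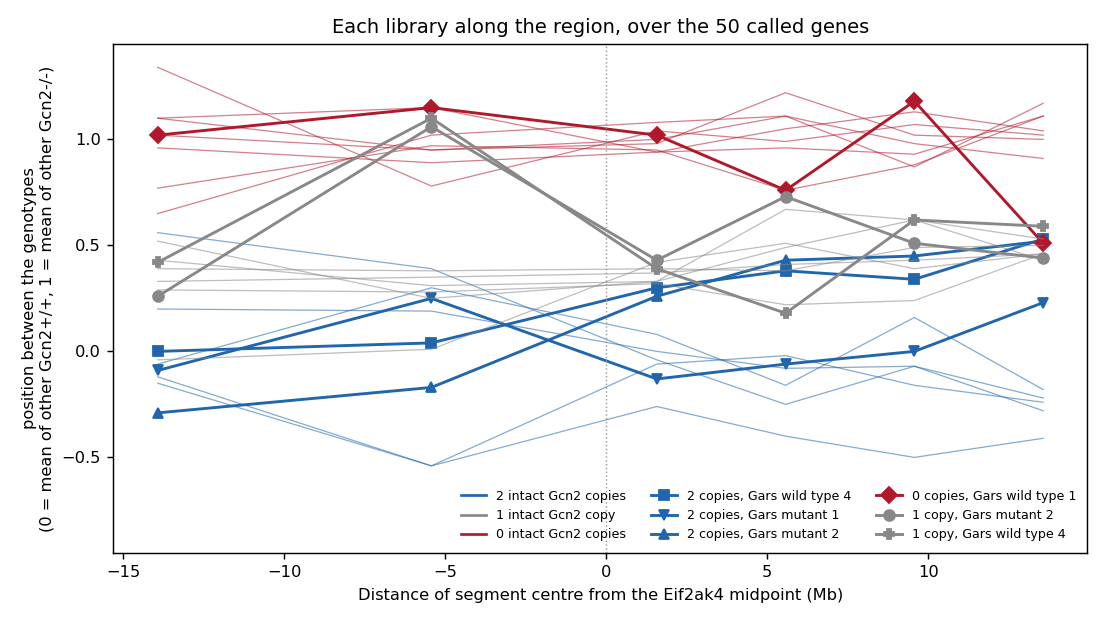
Place of each library between Gcn2+/+ (0) and Gcn2-/- (1) over the called members of 6 segments, against the segment's distance from Eif2ak4 in Mb, coloured by intact Gcn2 copies. Of the libraries drawn with symbols, the 2 of title number 25801 leave 0 distal of Eif2ak4, Gcn2+/+ Gars mutant 1 reaches 0.23 at the end, 1 Gcn2-/- library drops to 0.51 in the last segment, and 2 Gcn2+/- libraries stand near 1 in the segment centred about 5 Mb proximal. Gcn2+/+ wild-type Gars mouse 1, drawn without a symbol, stands at 0.56 and 0.39 in the segments proximal of Eif2ak4.

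Some near-identical pseudogenes of members also changed with lost copies. Pseudogenes of this kind are old copies of an mRNA inserted elsewhere, or duplicated gene pieces, and an expected count shares out the reads that match both gene and copy, so their separate values are uncertain. Of the 291 members, 20 had a transcript of another gene at 95% identity or more over at least 200 bases, 6 of the 50 called (12%) and 14 of the 241 others (5.81%). Itpa, the inosine triphosphate pyrophosphatase that clears deaminated purine nucleotides, has the processed pseudogene Itpa-ps1 at 94384502 to 94385098 on the same chromosome, outside the window, with 4 mismatches over the 597 coding bases. Pcna, the sliding clamp of DNA replication, has Pcna-ps2 on chromosome 19 (9283380 to 9284160), with 6 mismatches over 781 aligned bases. A 90-base stretch of each shows what tells their reads apart in the GENCODE M21 transcripts, with mismatched bases in capitals.
Itpa, coding bases 346 to 435: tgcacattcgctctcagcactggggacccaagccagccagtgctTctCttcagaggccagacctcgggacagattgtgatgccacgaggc
Itpa-ps1, same stretch: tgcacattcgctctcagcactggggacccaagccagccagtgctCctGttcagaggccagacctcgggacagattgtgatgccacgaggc
Pcna, coding bases 557 to 646: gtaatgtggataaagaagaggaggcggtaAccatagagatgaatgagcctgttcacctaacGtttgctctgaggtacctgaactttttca
Pcna-ps2, same stretch: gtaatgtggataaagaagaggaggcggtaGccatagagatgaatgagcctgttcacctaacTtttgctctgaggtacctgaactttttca
Itpa-ps1 had 4.48 to 8.81 CPM in the 8 Gcn2+/+ libraries and 2.98 to 5.52 in the 8 Gcn2+/- libraries. In Gcn2-/- mice it had at most 0.0759 CPM in 7 libraries and 4.04 CPM in wild-type Gars mouse 1. Among Gcn2+/+ libraries the lowest were those of title number 25801, at 4.48 and 4.67 CPM, and the other 6 had 6.34 to 8.81. Pcna-ps2, on another chromosome than Eif2ak4, split the same way. It had 15.7 to 18.7 CPM in 5 Gcn2+/+ libraries and 8.16, 8.24 and 8.26 in wild-type Gars mouse 4 and Gars mutants 1 and 2. It had 7.23 to 9.67 CPM in the 8 Gcn2+/- libraries, at most 0.093 in 7 Gcn2-/- libraries, and 9.47 in Gcn2-/- wild-type Gars mouse 1.

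Both parent genes rose, and the sums of gene and copy did not pass the test, which does not show that they were equal. Of the copies, Itpa-ps1 fell by 1.97 log2 units per lost copy (SE 0.46, edgeR, adjusted p = 0.0492), and Pcna-ps2, at -1.98 ± 0.52, did not pass the test (adjusted p = 0.108). Itpa alone rose by 0.22 ± 0.03 log2 units per lost copy (edgeR, adjusted p = 7.84e-04) and Pcna alone by 0.37 ± 0.05 (adjusted p = 3.03e-04). Summed with its pseudogene before the fit, Itpa changed by 0.00 ± 0.02 (adjusted p = 0.999) and Pcna by 0.06 ± 0.02 (adjusted p = 0.153). The sum of Itpa and Itpa-ps1 had 21.5 to 25.4 CPM in Gcn2+/+ and 22.1 to 25.6 in Gcn2-/- mice, and that of Pcna and Pcna-ps2 33.6 to 40.4 and 37.6 to 42.6 CPM. Mfap1a, a spliceosome protein gene with the near-identical neighbour Mfap1b (99.3% over 2328 bases), had a median of 69 CPM (58.9 to 78.3) in Gcn2+/+ and 53.7 (46.7 to 60.9) in Gcn2-/- mice, and fell by 0.18 log2 units per copy alone (SE 0.03, adjusted p = 0.0023) and by 0.06 as a pair (SE 0.02, adjusted p = 0.329). For Itpa, Pcna and Mfap1a the call therefore ended when the copies were summed. Spg11 was different: its partial copy Gm3650 on chromosome 18 also fell (-1.11 ± 0.22, adjusted p = 0.0112), and the sum still fell, by 0.14 (SE 0.02, adjusted p = 6.30e-04). For Mrps5, a mitochondrial ribosomal protein gene, the member itself lay at 0.01 while its copy Gm13328, at 20235045 to 20236064 on chromosome 2, fell by 2.35 log2 units per copy (SE 0.39, adjusted p = 0.00231). Gm13328 had 1.9 to 2.45 CPM in 6 Gcn2+/+ libraries, 0.869 and 1.09 in those of title number 25801, 0.714 to 1.73 in Gcn2+/- mice and at most 0.0367 in all 8 Gcn2-/- mice. Gm13988, a called pseudogene among the members (-0.97 ± 0.16, adjusted p = 0.00245), has a copy on chromosome 13 and is uncertain for the same reason. Without the members that have a near-identical copy, 44 called members remained, 30 higher and 14 lower.

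**Figure D5:**
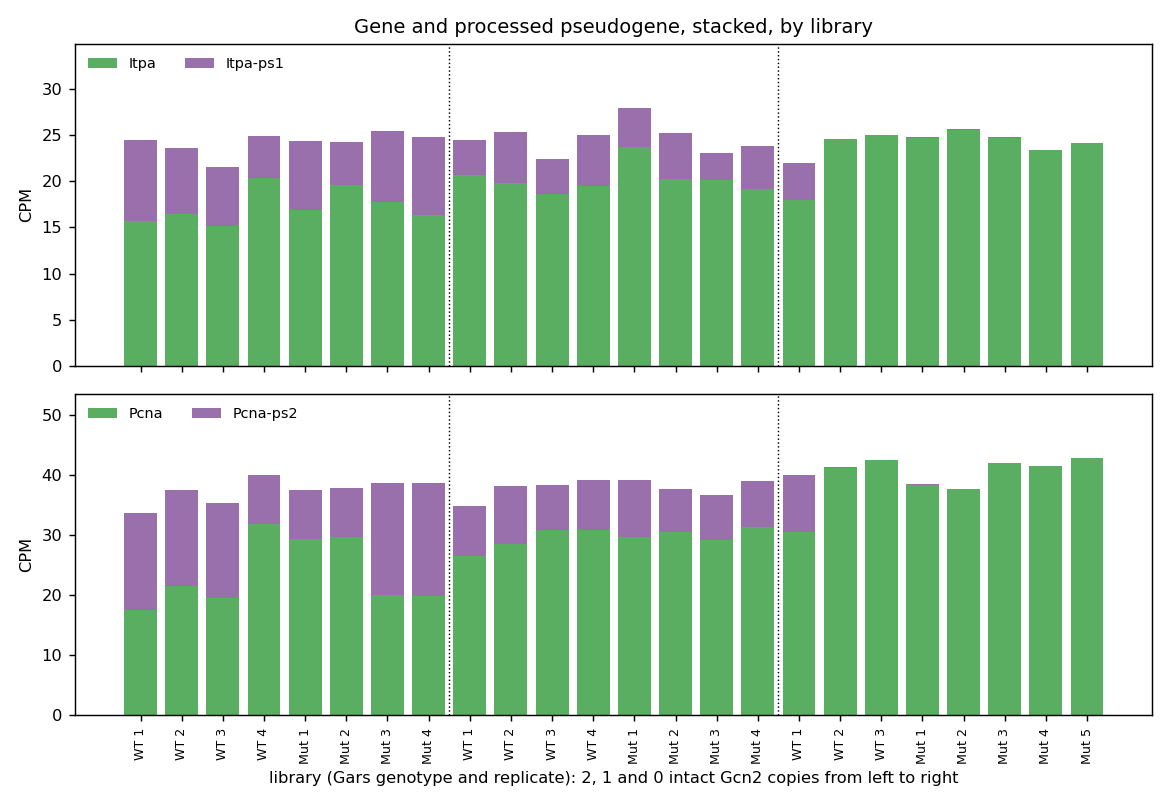
CPM of Itpa with Itpa-ps1 and of Pcna with Pcna-ps2, stacked, in each of the 24 libraries, ordered by 2, 1 and 0 intact Gcn2 copies (dotted lines between them). The pseudogene's part of the stack (purple) is under 0.1 CPM in 7 of 8 Gcn2-/- libraries while the stacks for mice with 2 and 0 copies span 21.5 to 25.4 and 22.1 to 25.6 CPM (Itpa) and 33.6 to 40.4 and 37.6 to 42.6 CPM (Pcna), and Gcn2-/- wild-type Gars mouse 1 keeps a share like that of mice with 1 copy.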

How the data were processed

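Whole spinal cord poly(A) RNA from 24 mice was sequenced. The authors' deposited files hold expected counts and TPM per gene, and RSEM 1.2.12 and Bowtie2 2.2.0 are named per the submitters' processing notes. For genome build, annotation and counting strand, nothing is stated (not given in the sources used here). Of 38924 gene identifiers, 37607 matched GENCODE M21, and the others held 0.261% of counts. 

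Expected counts were rounded, filtered with filterByExpr (17409 genes, all 291 members) and given TMM factors. The test was edgeR's quasi-likelihood one (version 4.0.16, under R 4.3.3). Fits held all 24 libraries, Gars genotype or group, and sex. Benjamini-Hochberg adjustment ran over all tested genes, with calls at 0.05. Log2 values carry SEs and CPM means SDs. Near-identical transcripts were found with blastn 2.17.0. The fits were tested on simulated data. Alternatives included DESeq2 1.42.0, other scalings and left-out libraries.

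The members, the gene classes and the tests were chosen with earlier results of these data known, Pla2g4e and Ganc among them. Genes are named by rule: up to 15 called members in each direction with the smallest p and a mean CPM of at least 1 for the slope over both Gars genotypes, up to 5 called in each other comparison, the 4 nearest on each side of Eif2ak4 and up to 4 of each class. Others are said to be chosen after their values were seen or are listed for a count.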

Additional observations from a re-analysis of the deposited data

Results flagged for a closer look

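Of 155 pairs of a named gene and a group of 4 or 5 libraries, 10 held a library whose gap to the rest was above the 95% critical value of Dixon's test, and chance alone flags about 1 in 20 groups. Both libraries of title number 25801 were among them. Gcn2+/+ Gars mutant 2 had 3.09 CPM of Adam33, beside 1.1 to 1.24 in its group, and 26.4 CPM of Pla2g4e, beside 40.5 to 43.1. Gcn2+/+ wild-type Gars mouse 4 had 1.47 CPM of Fam227b, beside 0.604 to 0.744. Gcn2+/- Gars mutant 2 had 66.0 CPM of Mfap1a, beside 56.4 to 57.7. Scg5 stood at 297 CPM in Gcn2+/+ wild-type Gars mouse 2, beside 185 to 198. Dnajc17 had 8.42 CPM in Gcn2+/+ Gars mutant 4, beside 6.46 to 6.63, and that library also had the highest nerve root markers. Vps16 had 44.6 CPM in Gcn2+/- wild-type Gars mouse 3, beside 47.8 to 48.4, and Fahd2a 6.86 CPM in Gcn2+/- wild-type Gars mouse 2, beside 8.1 to 8.34. In Gcn2-/- Gars mutants, mouse 5 had 9.86 CPM of Fahd2a, beside 9.28 to 9.39, and mouse 3 had 14.9 CPM of Galk2, beside 16.3 to 16.7. What set these libraries apart was not tested.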

How the results depend on the processing

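The 50 members called per lost copy became 31 (16 higher, 15 lower) within 10 Mb of Eif2ak4, where fewer members were counted, and 37 to 53 when 1 library was left out. With mutant Gars, the 27 calls per copy became 44 with DESeq2, 8 without Gars mutants 2 and 4, 8 with only the libraries of the comparison and 7 to 26 without 1 library. The 24 calls for loss of both copies became 49, 12, 3 and 7 to 24. With wild-type Gars, the 2 calls per copy became 5 with DESeq2, 8 without title number 25801, 0 with only the libraries of the comparison and 0 to 5 without 1 library, and the 2 calls for loss of both copies became 10, 9, 0 and 1 to 4. For mutant Gars the 1 call became 3 with DESeq2, 0 without a filter on low counts, 0 without Gars mutants 2 and 4 and 0 to 2 without 1 library. For the midpoint of Gcn2+/- the 0 calls became 1 with DESeq2, 2 without 25801 and 0 to 1 without 1 library. The 24 members with groups apart became 42 without 25801 and 24 to 32 without 1 library. These counts are given here without the share of all tested genes under each setting, so they do not set members apart from other genes. The cause was not tested. Replicate numbers follow accession order and pair nothing, so title number was used as the replicate block: it gave 50 calls per copy, 4 per copy and 4 for loss of both copies with wild-type Gars, 2 for mutant Gars and 2 for the midpoint. Under that block Vps16 (adjusted p = 0.138), Dnajc17 (0.0696) and Ccdc34 (0.113) lost their calls. Idh3b lost its call per copy with mutant Gars (0.0683). No direction reversed among the 53 genes refitted, which leave out Capn3, A730017L22Rik, Mrps26, Shld1, Pank2, Slc23a2 and Ivd. Calls of small steps are limited by 3 to 5 libraries a group.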
